A study of Mus musculus with 2 samples.

Results

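Cebpa, Cebpb, Cebpd, Cebpe, Spi1, Gfi1, Irf8 and Klf4 encode transcription factors known for steering marrow progenitors towards neutrophils or monocytes. These 8 genes were taken by symbol from the 32286 features of 2 droplet single-cell RNA libraries of mouse bone marrow hematopoietic cells, and each symbol named 1 feature. They were followed through 9 cell classes (2 of progenitors, 4 of neutrophils and 3 of monocytes), which held 8322 of 14720 kept control cells and 7854 of 12645 kept cells of the other library. The control genotype was Mx1Cre+/-;Rosa26+/+. The second library, called the MYC library here, had the genotype Mx1Cre+/-;Rosa26LSL-MYC/LSL-MYC, so both groups carried the Cre. The promoter of Mx1-Cre responds to interferon and is also active outside blood cells. MYC at the Rosa26 locus is silent until the recombinase cuts out the LSL stop sequence. Induction, age and the number of animals behind each library are not given in the sources used here.

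Each genotype had 1 library, so animals, preparation and genotype cannot be told apart, no test between the groups is possible and no p-value is given. Unique molecular identifiers (UMIs, each standing for 1 captured transcript) numbered 131884603 in the control against 110012176 in the MYC library. A level is the gene's UMIs per 1000000 UMIs (CPM), both summed over the cells of a class. All intervals are 95% intervals for counting error alone, exact Poisson for levels and exact binomial for ratios and shares. Where a count was 0, the limit given is instead the share that 3 cells would make. A gene was called higher or lower in the MYC library when its level differed at least 1.5-fold and the interval of the ratio excluded 1, among features with at least 50 UMIs in both libraries together. The classes were clusters named from marker genes, and the 8 genes took no part in the clustering. In each class all markers of its own type, 6 to 10 a list, had at least 1 UMI in both libraries. All 7 immature neutrophil and 8 monocyte markers had this in erythroid and T cells too, so such detection does not test the class names.

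As background, PU.1 (the product of Spi1) is needed for all myeloid cells and acts in a dose-dependent way. C/EBPα opens the granulocyte and monocyte programme in progenitors, C/EBPε drives the formation of secondary granules, and C/EBPβ is known for granulocyte output under stress and for mature monocytes. Gfi1 is a repressor that favours neutrophils, whereas Irf8 and its downstream partner Klf4 favour monocytes and dendritic cells, and Gfi1 and Irf8 are known to act against each other.

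The genes lie, in GRCm38 with the GENCODE vM21 annotation, at chr7:35119293-35121928 (Cebpa, plus strand), chr2:167688915-167690418 (Cebpb, plus, a single exon), chr16:15887286-15891031 (Cebpd, plus), chr14:54710360-54712174 (Cebpe, minus), chr2:91082390-91115756 (Spi1, plus), chr5:107716657-107726036 (Gfi1, minus), chr8:120736358-120756694 (Irf8, plus) and chr4:55527143-55532466 (Klf4, minus). All are protein-coding. Irf8 overlaps Gm20388 on the same strand, so reads of these 2 genes could be divided between them. Antisense genes overlap Cebpa, Cebpb, Cebpd and Gfi1.

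Promoters were looked up for all the genes because the MYC protein is known to bind E-boxes and several of these factors act on each other's promoters. Those of Cebpd, Cebpe and Spi1 were not found by symbol. Shown are promoters of the other 5 genes, which are also the 5 called in at least 1 class. Each is the 250 bases before a RefSeq start site of GRCm38.p6, printed 5′ to 3′ on the gene's own strand. Capitals mark matches on either strand to an E-box (CACGTG), a C/EBP half-palindrome pair (TTGCNNAA) or a PU.1 core (GAGGAA).
Cebpa, chr7:35119043-35119292, plus strand: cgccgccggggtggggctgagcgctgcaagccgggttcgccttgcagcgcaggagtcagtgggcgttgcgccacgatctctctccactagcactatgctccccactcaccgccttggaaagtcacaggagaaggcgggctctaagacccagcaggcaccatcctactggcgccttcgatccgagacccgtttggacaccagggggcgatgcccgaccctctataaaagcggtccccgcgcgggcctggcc
Cebpb, chr2:167688665-167688914, plus strand: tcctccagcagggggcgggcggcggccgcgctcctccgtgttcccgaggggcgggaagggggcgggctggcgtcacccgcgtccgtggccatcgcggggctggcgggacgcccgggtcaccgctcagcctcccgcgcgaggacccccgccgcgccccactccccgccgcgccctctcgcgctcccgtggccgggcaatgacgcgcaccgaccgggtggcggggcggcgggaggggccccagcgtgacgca
Gfi1, chr5:107725806-107726055, minus strand: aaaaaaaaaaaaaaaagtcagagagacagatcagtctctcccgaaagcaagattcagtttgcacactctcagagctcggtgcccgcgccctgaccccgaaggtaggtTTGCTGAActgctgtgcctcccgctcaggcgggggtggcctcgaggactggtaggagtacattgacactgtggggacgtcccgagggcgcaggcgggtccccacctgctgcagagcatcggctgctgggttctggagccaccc
Irf8, chr8:120736108-120736357, plus strand: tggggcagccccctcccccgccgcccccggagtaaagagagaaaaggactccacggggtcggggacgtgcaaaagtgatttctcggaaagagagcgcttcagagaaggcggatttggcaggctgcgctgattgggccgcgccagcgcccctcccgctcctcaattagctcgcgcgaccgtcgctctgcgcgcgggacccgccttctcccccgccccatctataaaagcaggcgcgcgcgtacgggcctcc
Klf4, chr4:55532476-55532725, minus strand: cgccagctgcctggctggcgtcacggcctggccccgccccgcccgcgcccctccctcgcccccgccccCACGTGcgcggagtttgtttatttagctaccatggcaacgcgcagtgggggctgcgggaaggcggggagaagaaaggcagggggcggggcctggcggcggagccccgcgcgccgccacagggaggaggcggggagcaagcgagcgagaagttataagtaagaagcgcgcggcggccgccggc
In these windows the Klf4 promoter held 1 E-box, 182 bases before the start, and the Gfi1 promoter 1 C/EBP match, 143 bases before the start. Of 32851 mouse promoters of the same length, 6.02% held an E-box, 9.56% the C/EBP letters and 23.3% the PU.1 letters. Gfi1 and Irf8 each had another start site, whose window is not printed and held no match. A match describes letters, not binding.

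Across the 9 classes, 66 of the 72 pairs of gene and class had enough UMIs to be called, of which 4 were higher and 13 lower in the MYC library. All 4 higher calls were of Cebpb. The lower calls were of Cebpa and Gfi1 along the neutrophil lineage, of Klf4 and Irf8 in monocytes, and of Irf8 in granulocyte progenitors. Cebpd, Cebpe and Spi1 were called in none of the 9. Of all features, 4.36% to 13.4% were called higher and 13.6% to 26.6% lower, depending on the class.

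By class, stem or multipotent progenitors had 1 of 8 members higher and 0 lower, where 4.86% and 13.8% of 10840 features were. Granulocyte progenitors had 1 of 7 higher and 3 lower (4.36% and 26.6% of all features). Among neutrophils, the cycling immature class had 0 and 1 of 8 (7.57% and 17.2%), the non-cycling one 1 and 1 (7.29% and 19.7%), the early mature one 1 and 2 (9.19% and 17.6%) and the late mature one 0 and 2 (8.26% and 22.6%). Cycling monocytes had 0 and 2 of 7 (7.44% and 15.3%), non-cycling monocytes 0 and 1 of 7 (13.4% and 19.5%) and nonclassical monocytes 0 and 1 of 5 (12.0% and 13.6%). Over the whole neutrophil lineage, granulocyte progenitors included, 1 of 8 was higher and 2 lower (4.52% and 21.5%), and over the 2 classes of classical monocytes 0 and 1 of 8 (10.1% and 16.4%). With 5 to 8 members a class, these counts are not read as setting the genes apart from the rest.

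**Figure D1:**
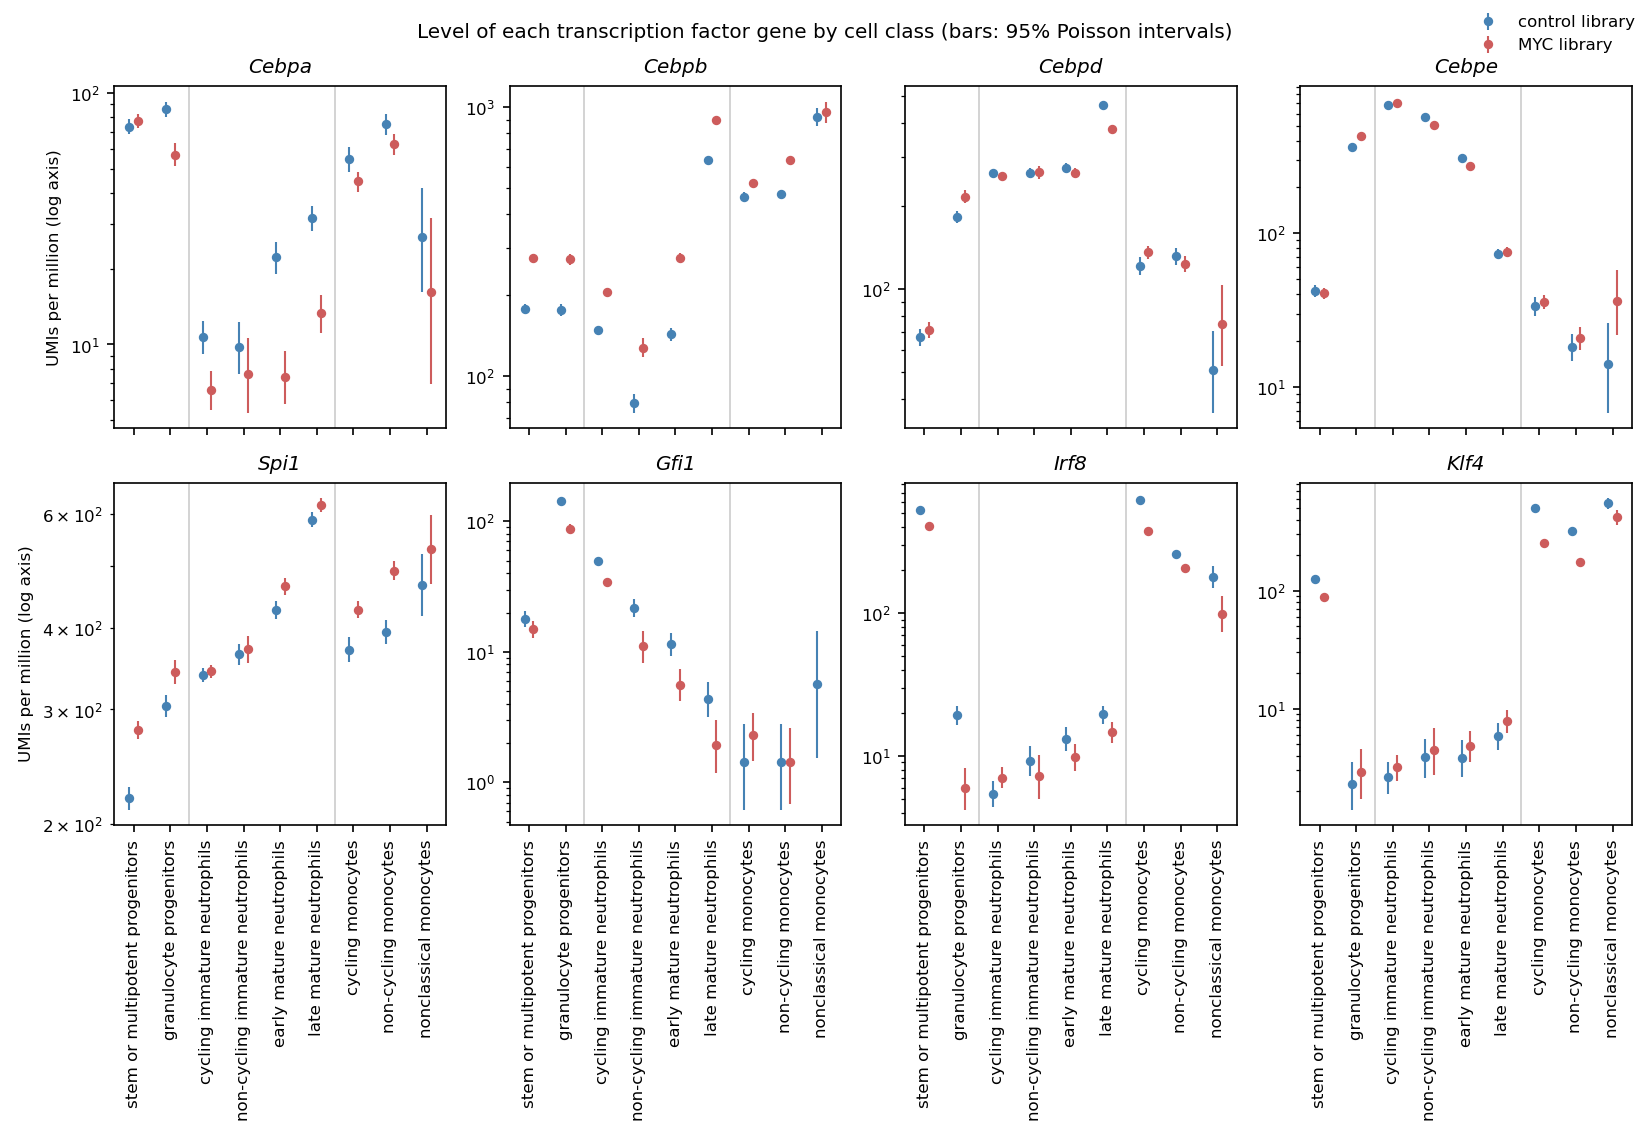
Level of each gene (CPM, log axis) in the 9 classes of the control (blue) and MYC (red) library, with 95% Poisson intervals; classes with 0 UMIs have no point and vertical lines part progenitors, neutrophils and monocytes. Cebpe peaks in cycling immature neutrophils (686 and 707 CPM), Irf8 and Klf4 are high in monocytes and low in neutrophils, and Cebpb is higher in the MYC library from the progenitors to the late mature neutrophils.

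Free RNA in droplets gives UMIs in cells that do not make a transcript, so levels were read against classes outside the myeloid lineages. To compare depths, each cell was also thinned to 2000 UMIs, which left out 494 control and 471 MYC cells of the 9 classes as too shallow. In erythroid cells (1250 control and 356 MYC cells of that depth) a UMI of Cebpa was then seen in 0.32% of control and 0.562% of MYC cells, of Irf8 in 2.16% and 1.40%, of Klf4 in 0.24% and 0.843%, and of Cebpe in 2.56% and 3.37%. Gfi1 was seen in 0.40% of control erythroid cells and in 0 of 356 MYC ones, which allows a share of up to 0.843%. Without thinning these erythroid shares were 2.59% and 4.23% for Cebpa, 9.63% and 8.22% for Irf8, 2.52% and 4.69% for Klf4 and 10.4% and 13.4% for Cebpe. Median depths before thinning were 11189 and 12539 UMIs in erythroid cells. T cells, with 6215 and 4471, gave a Cebpa share of 1.37% (0.446 to 3.17) in the control against 2.42% (0.502 to 6.91) in the MYC library.

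Spi1 was the most evenly spread of the 8 genes. In the control its level was 219 CPM in stem or multipotent progenitors, 304 in granulocyte progenitors, 339 in cycling and 365 in non-cycling immature neutrophils, 427 in early mature and 589 in late mature neutrophils. The corresponding MYC levels were 279, 342, 343, 371, 465 and 619 CPM. Both libraries thus gave the same upward order along the neutrophil stages, though in the MYC library the interval of granulocyte progenitors overlapped those of both immature classes. In monocytes Spi1 stood at 371 CPM (cycling), 395 (non-cycling) and 467 (nonclassical) in the control and at 427, 491 and 530 in the MYC library. It was on the higher side in the MYC library in all 9 classes, by log2 ratios of 0.02 to 0.35, none of which reached 1.5-fold. The largest, in stem or multipotent progenitors, had an interval of 0.28 to 0.43, and it became 1.61 with each library clustered on its own. The intervals in both immature classes and in nonclassical monocytes included 0, and in the 4 neutrophil classes and nonclassical monocytes the sign turned under at least 1 other setting (lowest -0.06).

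Among the 9 classes Cebpa was highest, in both libraries, in progenitors and classical monocytes. In stem or multipotent progenitors it stood at 73.3 CPM (68.4 to 78.5) in the control against 77.2 (72.5 to 82.2) in the MYC library. The log2 ratio was 0.07 (-0.06 to 0.21), and it ran from -0.02 to 0.81 under the 12 other settings, 3 of which made a call. In granulocyte progenitors the levels were 86.0 (79.9 to 92.3) and 56.8 (51.0 to 63.0), lower in the MYC library by a log2 ratio of -0.60 (-0.79 to -0.41). The granulocyte progenitors were thus above the other progenitors in the control and below them in the MYC library, with intervals that did not overlap. The call in granulocyte progenitors rests on a ratio close to 1.5-fold: it was lost under 6 of 13 other settings, which ranged from -0.91 to -0.22. In classical monocytes Cebpa measured 64.7 and 51.6 CPM and was not called (-0.33).

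Cebpa was low in immature neutrophils, at 10.7 CPM in the cycling and 9.76 in the non-cycling class of the control and 6.59 and 7.63 in the MYC library. The thinned shares there, 1.92% and 2.39% in the control and 1.25% and 1.48% in the MYC library, lay above the erythroid shares and within the T cell interval, and the cycling class was called lower (-0.70). Levels outside the myeloid lineages were 2.19 and 3.93 CPM in erythroid and 10.0 and 9.57 in T cells, and thinned control B progenitors had a Cebpa UMI in 0 of 450 cells (up to 0.667%). How much of the level in immature neutrophils is free RNA was not tested. Mature neutrophils of the control were above it: 22.2 CPM (19.1 to 25.6; 4.54% of thinned cells) in the early and 31.7 CPM (28.3 to 35.5; 6.04%) in the late class. The MYC library had 7.43 CPM (5.78 to 9.40) in the early and 13.3 CPM (11.1 to 15.7) in the late class, with shares of 1.44% and 2.5%. The MYC shares lay above the MYC erythroid share and within the MYC T cell interval, which also held both control shares. Without thinning the shares were 11.2% and 4.31% in the early and 10.1% and 6.0% in the late class. The log2 ratios were -1.58 (-2.0 to -1.17) and -1.26 (-1.56 to -0.96). Both mature classes were called lower under all 12 other settings, from -1.99 to -0.83.

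The late class is made of different clusters in the libraries. Cluster 0, led by Il1b, held 1567 control and 733 MYC cells, cluster 1, led by Retnlg, 941 and 1096, the interferon-gene cluster 13 207 and 37, and the stefin-gene cluster 27 13 and 233. Cebpa was lower within both large clusters, at 26.0 against 13.9 CPM in cluster 0 (-0.90, -1.43 to -0.39) and 40.2 against 13.5 in cluster 1 (-1.58, -1.99 to -1.18). Markers of other cell types moved the same way in late mature neutrophils. The summed level of 7 B progenitor markers was 27.1 CPM in the control, where all were detected, and 5.33 in the MYC library, where 2 were at 0. The 8 erythroid markers summed to 1126 and 661 CPM and the 6 plasma cell markers to 109 and 42.1. The 6 basophil or mast cell markers, from the class with the highest Cebpa level (485 and 451 CPM), summed to 37.8 and 36.2, and the 8 monocyte markers to 1465 and 1238. The part of such RNA in the Cebpa difference was not tested.

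Cebpb was higher in early mature than in non-cycling immature neutrophils and highest in late mature ones among the neutrophils of both libraries. Nonclassical monocytes stood above the other 8 classes, though in the MYC library their interval overlapped that of late mature neutrophils. In stem or multipotent progenitors it measured 178 CPM (170 to 186) in the control against 275 (266 to 284) in the MYC library. The log2 ratio was 0.63 (0.55 to 0.71). Under the 12 other settings it ran from 0.43 to 3.18, the last with each library clustered on its own, where the class held 248 control and 594 MYC cells in place of 508 and 601. The call was lost under 3. Granulocyte progenitors gave 177 and 273 CPM (0.63, 0.53 to 0.73), a call lost under 1 of 13 other settings. Non-cycling immature neutrophils had 79.3 and 128 CPM (0.69, 0.52 to 0.85), and early mature neutrophils 143 and 276 (0.95, 0.85 to 1.05). These were the 4 higher calls. Cycling immature neutrophils (148 and 206 CPM, 0.47) and late mature neutrophils (639 and 895 CPM, 0.49) were higher by less than 1.5-fold, with intervals above 0.

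Within the late class Cebpb was higher in both large clusters, at 861 and 1317 CPM in cluster 0 (0.61, 0.55 to 0.67) and 381 and 665 in cluster 1 (0.80, 0.72 to 0.89). Cluster 0, where Cebpb is most abundant, held the larger part of the control class. At equal depth, a Cebpb UMI was found in 23.1% of control and 37% of MYC early mature neutrophils and in 62.1% and 73.9% of late ones (42.7% and 64.0%, and 75.7% and 89.0%, without thinning). Erythroid cells gave 4.16% and 14.0%, and T cells 6.58% and 12.9%, so Cebpb UMIs outside the myeloid lineages were also more frequent in the MYC library. Levels there were 20.5 and 84.2 CPM in erythroid cells and 44.2 and 71.8 in T cells. How much of the higher Cebpb in low-level classes came from free RNA was not tested. Monocytes differed less: 466 and 522 CPM when cycling, 475 and 638 when not, and 920 and 961 when nonclassical, the last with an interval of the log2 ratio from -0.11 to 0.24. The early mature call was lost under 3 of 12 other settings (lowest 0.07, under a minimum of 1000 UMIs and 500 genes per cell), and the non-cycling immature call under none of 11.

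Cebpd and Cebpe differed by stage of the neutrophil lineage far more than between the libraries. Cebpd, which is known as an inducible family member, stood in the control at 66.8 CPM in stem or multipotent progenitors, 183 in granulocyte progenitors, 263 in both immature classes, 275 in early mature and 464 in late mature neutrophils. In the MYC library these levels were 71.1, 216, 257, 265, 264 and 379 CPM. The intervals of the immature and early mature classes overlapped in each library. Among the 4 neutrophil classes the largest difference was that of the late mature one, a log2 ratio of -0.29 (-0.35 to -0.23). Classical monocytes had 126 and 131 CPM. Nonclassical monocytes had 50.8 and 74.9 CPM on 36 and 37 UMIs, a log2 ratio of 0.56 (-0.14 to 1.26) that was not called.

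Cebpe peaked in immature neutrophils, the stage known for making secondary granules. It measured 42.1 CPM in stem or multipotent progenitors of the control, 364 in granulocyte progenitors, 686 in cycling and 572 in non-cycling immature neutrophils, 307 in early mature and 73.0 in late mature ones. The MYC library gave 40.5, 427, 707, 504, 274 and 75.6 CPM. The peak therefore fell in cycling immature neutrophils in both. Log2 ratios among these classes lay between -0.18 and 0.23, and the peak class differed by 0.04 (0.01 to 0.08). In early mature neutrophils the ratio ran from -0.56 with each library clustered on its own to 0.62, a higher call, with at least 1000 UMIs and 500 genes per cell. In late mature ones it became 0.65, also a higher call, at the finer clustering. In monocytes a Cebpe UMI was seen in 3.84% of control and 4.74% of MYC thinned classical cells, somewhat above the erythroid shares (16.5% and 17.1% against 10.4% and 13.4% without thinning). Levels were 25.8 and 29.6 CPM against 13.2 and 24.0 in erythroid cells.

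Gfi1 was concentrated in granulocyte progenitors and was lower in the MYC library from there on. The control levels were 17.9 CPM in stem or multipotent progenitors, 142 (134 to 150) in granulocyte progenitors, 49.5 and 21.7 in cycling and non-cycling immature neutrophils, and 11.4 and 4.35 in early and late mature ones. The MYC levels were 14.9, 87.7 (80.5 to 95.4), 34.4, 11, 5.60 and 1.94 CPM. Each stage after the granulocyte progenitors was lower than the one before it in both libraries, with no overlap of intervals. The log2 ratio was -0.69 (-0.84 to -0.55) in granulocyte progenitors, -0.53 (-0.67 to -0.38) in cycling immature neutrophils, which was not called, and -0.97 (-1.45 to -0.52) in the non-cycling ones. It was -1.03 (-1.55 to -0.53) in early mature neutrophils on 95 and 52 UMIs, a call lost at the finer clustering (-0.37) and with at least 1000 UMIs and 500 genes per cell (-0.28), while separate clustering of the libraries gave -2.08. In late mature neutrophils, with 43 and 20 UMIs and 0.816% and 0.313% of thinned cells, Gfi1 was called lower on few UMIs, and the share in classical monocytes was 0.439% and 0.321%. In the stem or multipotent progenitors the interval of the ratio, -0.56 to 0.03, included no difference, and the sign turned under other settings (-0.36 to 0.48).

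At equal depth 22.4% (18.5 to 26.6) of control and 14.9% (11.3 to 19.2) of MYC granulocyte progenitors had a Gfi1 UMI (85.2% and 67.4% without thinning). Of 13 other settings, 11 kept the call in this class. It was lost with cells under 5% mitochondrial UMIs and with a scaling to the median gene, which gave -0.38: 26.6% of all features were called lower there against 4.36% called higher, and the median feature stood at -0.31. The 6 defining markers of granulocyte progenitors, such as Elane and Mpo, summed to 36851 CPM in the control against 38734 in the MYC library. The cycling list summed to 1810 and 1465, and the 8 monocyte markers to 1623 and 1312; their part in the result was not tested.

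**Figure D2:**
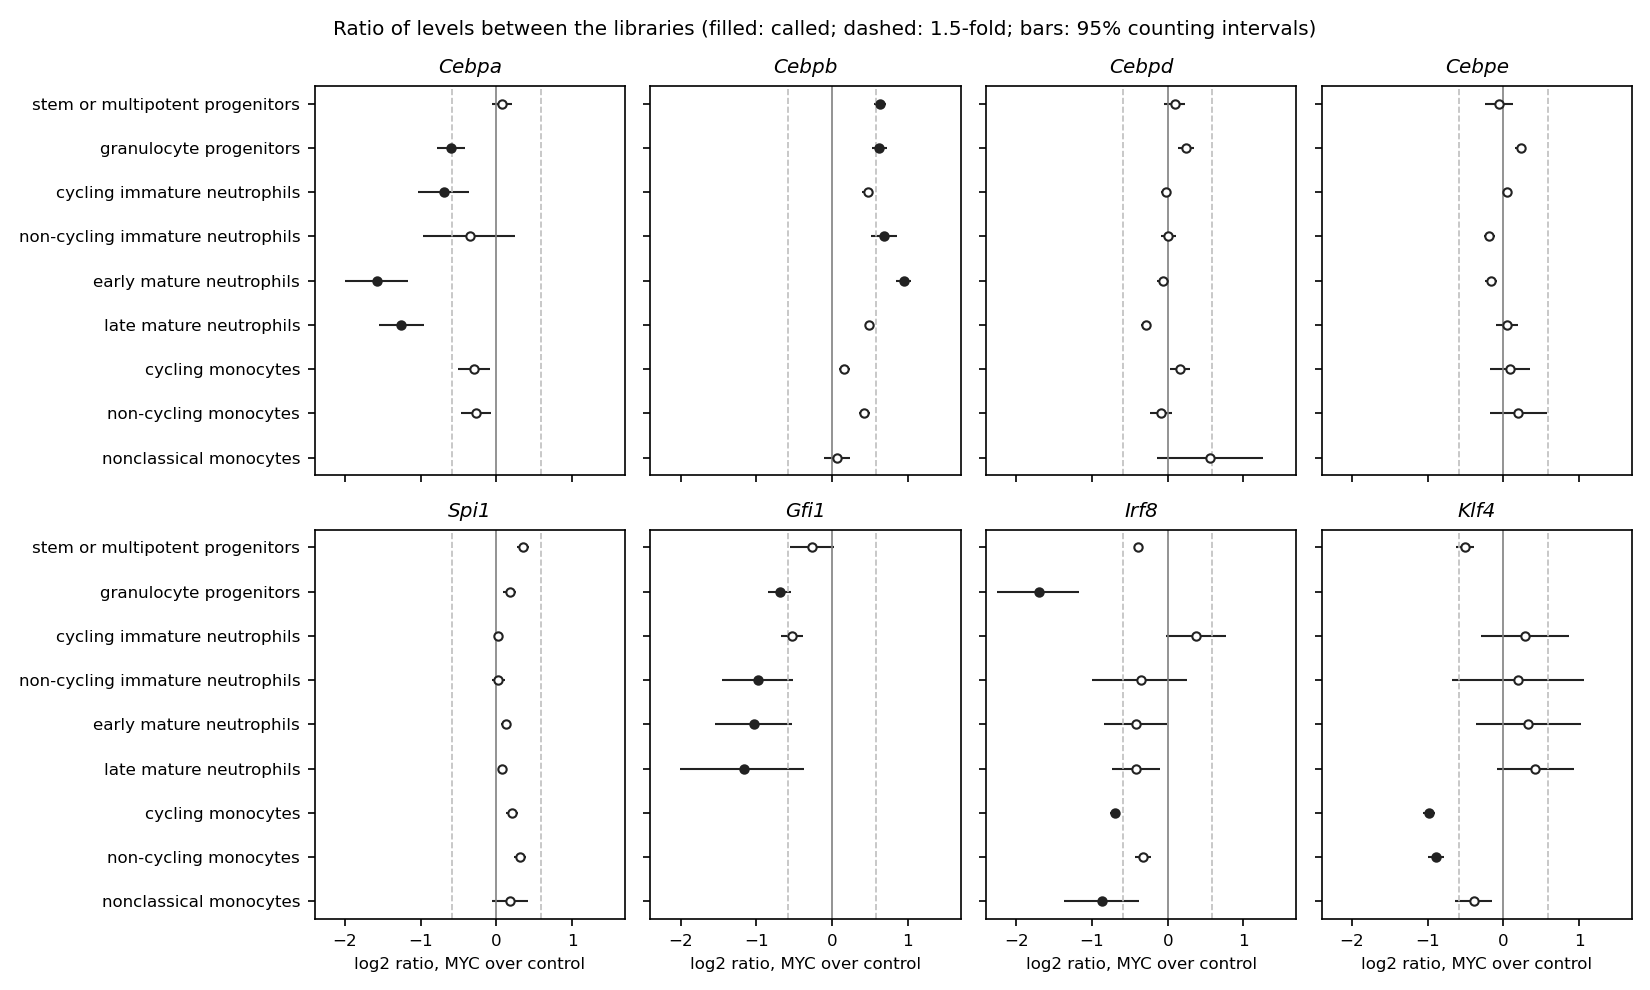
Log2 ratio of the level in the MYC over the control library for each gene and class with at least 50 UMIs, with 95% counting intervals; filled points were called, open ones were not, and dashed lines stand at 1.5-fold. Cebpb lies to the right of 0 in all 9 classes, Gfi1 to the left in the 6 progenitor and neutrophil classes shown, and Spi1, Cebpd and Cebpe between the dashed lines.

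Irf8 was high in the stem or multipotent class, where most of it lay in a part of the cells described further on, and in monocytes, and was low in the neutrophil lineage. Cycling monocytes had 618 CPM (597 to 638) in the control against 380 (368 to 392) in the MYC library. The log2 ratio was -0.70 (-0.77 to -0.64). Non-cycling monocytes had 260 and 207 CPM (-0.33, -0.44 to -0.22), and nonclassical monocytes 181 and 99.1 CPM on 128 and 49 UMIs (-0.87, -1.37 to -0.38). The nonclassical call was lost at both other cluster resolutions (-0.22 at the coarser one). At equal depth, 63.9% of control and 45.9% of MYC cycling monocytes had an Irf8 UMI (97.6% and 94.0% without thinning). The call in cycling monocytes was lost with the median-gene scaling (-0.55) and, by a narrow margin, without ribosomal and mitochondrial genes in the total (-0.58). In stem or multipotent progenitors Irf8 measured 531 and 406 CPM (-0.39) and was not called. Of 12 other settings 9 kept it uncalled, and the lowest value was -0.92 with doublets kept, where the class held 614 and 246 UMIs of Irf8. With each library clustered on its own the value was 1.86, but the class then held 515 control and 5009 MYC UMIs. The class described here held 5905 and 5265.

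In granulocyte progenitors Irf8 was at 19.3 CPM (16.5 to 22.5) in the control against 5.97 (4.20 to 8.22) in the MYC library, a called log2 ratio of -1.7 (-2.25 to -1.18). The fall lay in the larger finer cluster of this class, cluster 20, with 20.1 CPM (control) against 3.57 (MYC). The smaller finer cluster 4 went the other way, at 14.7 CPM (8.99 to 22.7) against 28.6 (16.6 to 45.7). Those intervals overlapped and rested on 20 and 17 UMIs. The thinned shares of the whole class were 2.30% (1.11 to 4.20) and 0.896% (0.185 to 2.59) against 2.16% and 1.40% of erythroid cells. The erythroid levels were 11 CPM (9.62 to 12.5) and 7.56 (5.65 to 9.92), so the control level was above that of erythroid cells and the MYC level was not. The call was lost under 4 of 13 other settings, with a value of -0.09 at finer clustering, where the class also took in Irf8-rich progenitors and held 4063 and 4265 Irf8 UMIs in place of 169 and 37. Neutrophils had 5.44 to 19.5 CPM in the control and 7.03 to 14.6 in the MYC library, with no call. Outside the 9 classes, plasmacytoid dendritic cells had the highest Irf8, 3183 and 2284 CPM.

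Klf4 was abundant in monocytes and part of the stem or multipotent class and low elsewhere among the 9 classes. Cycling monocytes measured 501 CPM (483 to 520) in the control against 253 (244 to 263) in the MYC library. The log2 ratio was -0.99 (-1.06 to -0.91). Non-cycling monocytes measured 320 (305 to 335) and 173 (163 to 183), a log2 ratio of -0.89 (-0.99 to -0.78). Nonclassical monocytes were closer, with 547 and 417 CPM (-0.39, -0.64 to -0.15). The thinned share with a Klf4 UMI was 58.5% and 35.4% in cycling and 42.0% and 27.4% in non-cycling monocytes (94.9% and 85.4%, and 85.5% and 71.1%, without thinning). Nonclassical and cycling monocytes stood above non-cycling ones in both libraries. The call in non-cycling monocytes was kept under all 11 other settings, from -1.08 to -0.69, and that in cycling monocytes under 11 of 12, being lost (-0.36) when each library was clustered on its own.

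The 8 monocyte markers were also lower in the MYC library, at 9644 and 7266 CPM in cycling and 12186 and 8224 in non-cycling monocytes, and all were detected in both. The 6 granulocyte progenitor markers summed to 211 and 439 CPM in the non-cycling class, and the 6 nonclassical markers to 595 and 316. In nonclassical monocytes, of which there were 130 control and 72 MYC cells, the 7 immature neutrophil markers summed to 3255 and 8271 CPM. The part of these shifts in the Irf8 and Klf4 values was not tested. Stem or multipotent progenitors had 126 and 88.3 CPM of Klf4 (-0.51, -0.62 to -0.39), not called. Of 12 other settings 7 left it uncalled and 3 called it lower (-0.60 without the 20 most abundant genes or without Gm42418 in the total, -0.63 for the mean of each cell's CPM). Higher calls came with doublets kept and with each library clustered on its own, and 5 settings that regrouped the cells turned the sign. Of the 1396 control and 1145 MYC Klf4 UMIs of the class, the finer clustering left 13 and 20 in the class of this name (0.91), doublets kept 17 and 33 (1.36) and markers alone 20 and 29 (1.17, like the first under the minimum of 50 UMIs), so these values leave out the progenitors that hold most Klf4. Each library clustered on its own gave 16 and 1090 UMIs (4.67), which are not the same kinds of cells, and cells under 5% mitochondrial UMIs gave 234 and 456 (0.09). Granulocyte progenitors and neutrophils had 2.29 to 7.85 CPM and thinned shares of 0.597% to 1.51%, against 0.24% and 0.843% of erythroid and 1.92% and 0.806% of T cells.

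**Figure D3:**
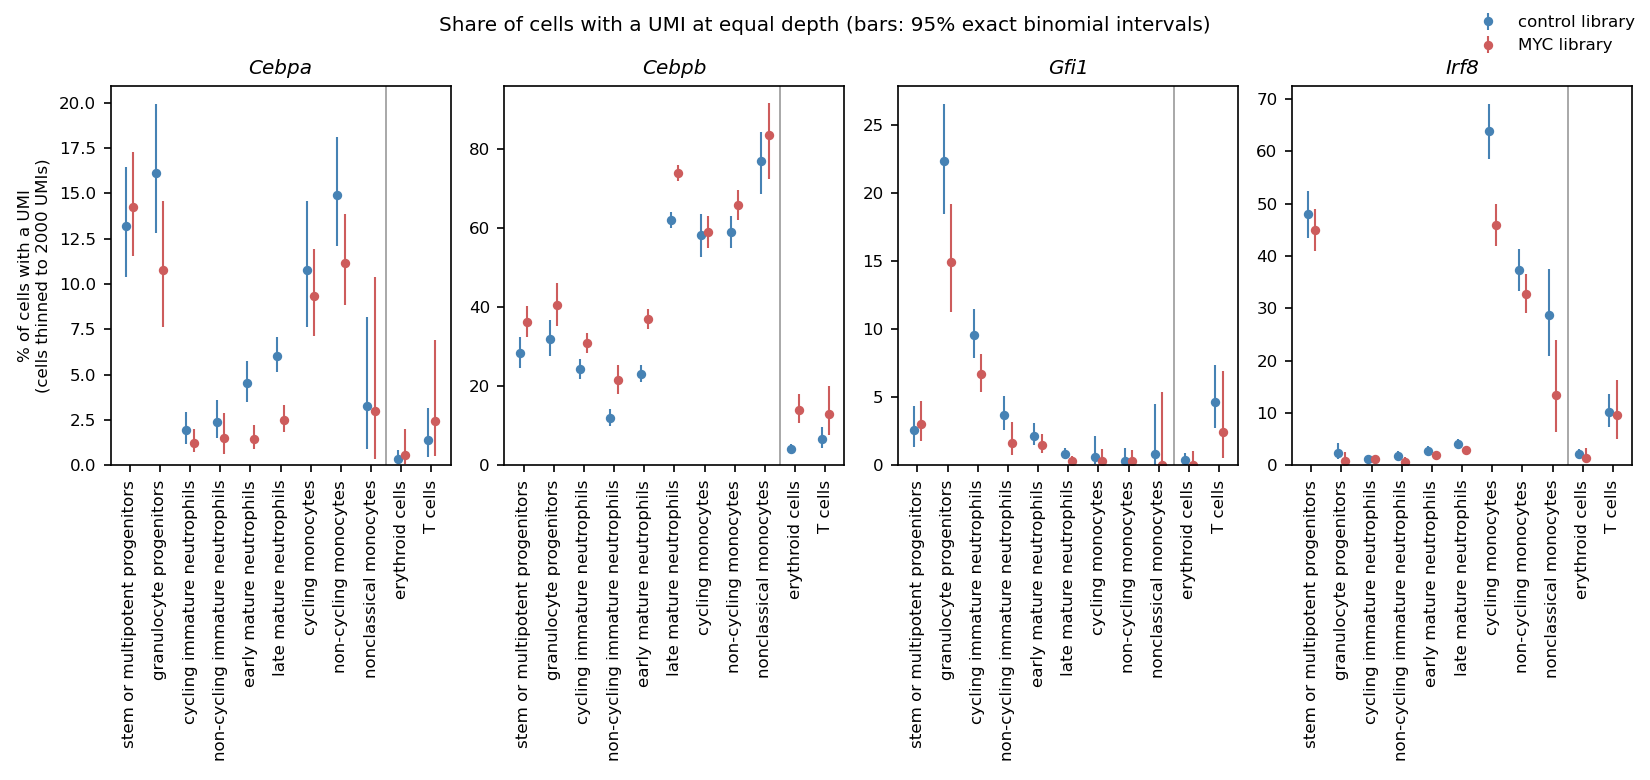
Percent of cells with a UMI of Cebpa, Cebpb, Gfi1 or Irf8 after each cell was thinned to 2000 UMIs, in the 9 classes and, right of the line, in erythroid and T cells, with 95% exact binomial intervals. Cebpa is seen in 1.44% and 2.5% of MYC mature neutrophils, against 0.562% of MYC erythroid cells and 2.42% (0.502 to 6.91) of MYC T cells. The Cebpb share of erythroid cells is 4.16% in the control against 14.0% in the MYC library.

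The stem or multipotent class held several kinds of progenitor, and Irf8 and Klf4 were far more abundant in some of them. At a finer clustering it fell mainly into 3 clusters. Cluster 21, led by Pf4, a gene of the megakaryocyte branch, and Mecom, a gene of stem cells, held 174 control and 175 MYC cells. It had 78.6 and 63.3 CPM of Irf8, 3.33 and 6.23 of Klf4 and 28.9 and 62.6 of Cebpb. Clusters 37 (92 and 158 cells) and 38 (205 and 220 cells), led by Tctex1d1 and Bex6, had 850 and 856 CPM of Irf8 in the control and 631 and 534 in the MYC library. Klf4 was 142 and 113 CPM in cluster 37 and 287 and 157 in cluster 38, and Cebpb 363 and 464 in cluster 38. Irf8 was therefore lower in the MYC library in all 3 clusters, though with overlapping intervals in cluster 21, Cebpb higher in all 3, and Klf4 lower in the 2 where it was abundant. Cebpa, by contrast, was 45.3 and 70.7 CPM in cluster 21, 82.9 and 75.9 in cluster 37 and 79.9 and 69.6 in cluster 38. Cluster 20, led by Elane and Mpo, held most granulocyte progenitors (363 and 304 cells) and had 93.0 and 58.9 CPM of Cebpa and 151 and 92.2 of Gfi1. Irf8 was 20.1 and 3.57 CPM in cluster 20. In the smaller cluster 4 of granulocyte progenitors, led by Fcnb, Irf8 had the other direction, 14.7 and 28.6 CPM, with overlapping intervals.

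**Figure D4:**
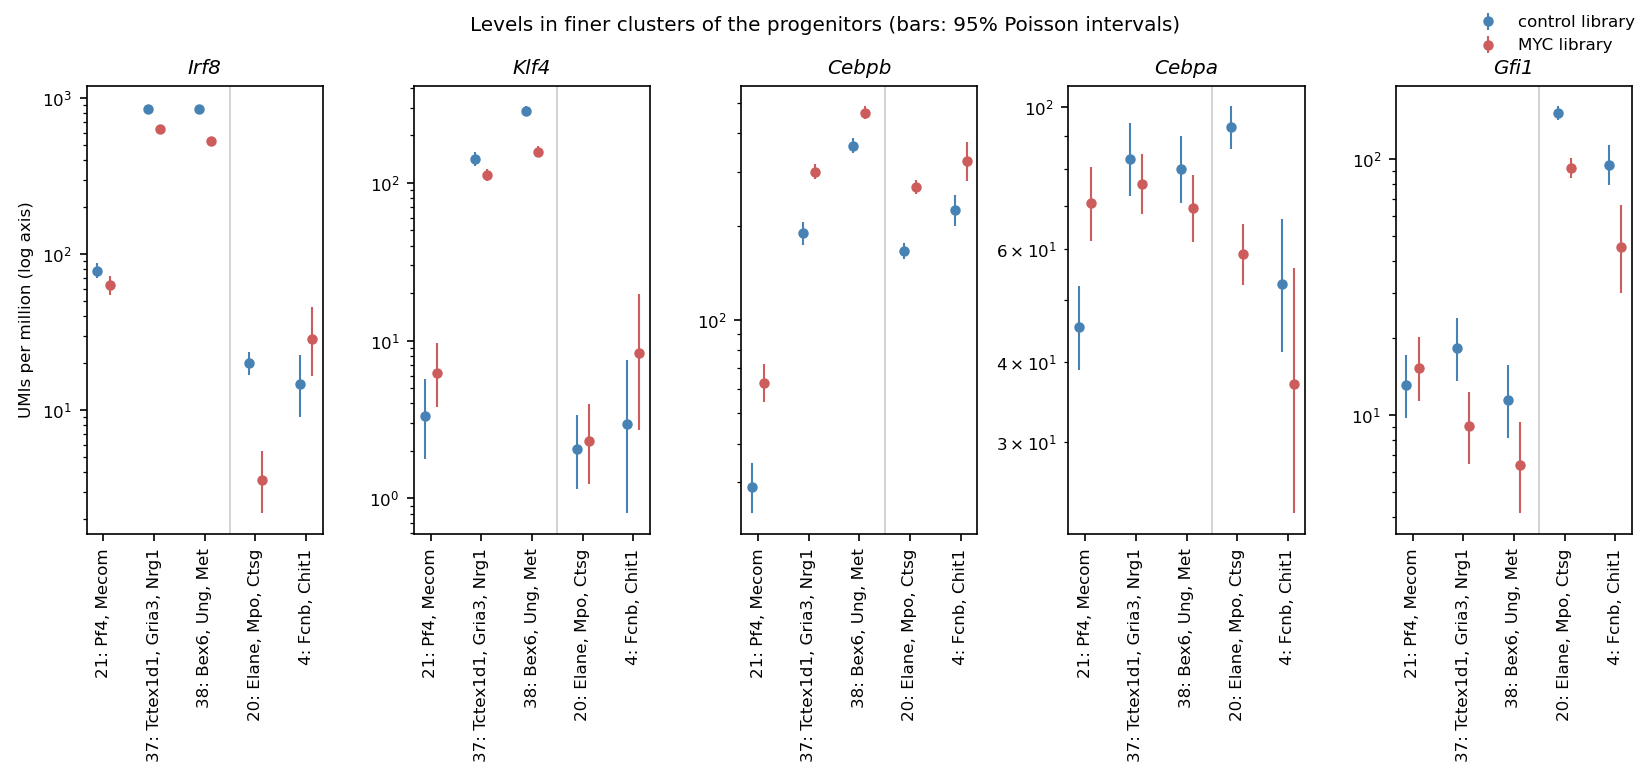
Levels (CPM, log axis) of Irf8, Klf4, Cebpb, Cebpa and Gfi1 in 5 finer clusters of the stem or multipotent (left of the line) and granulocyte progenitors (right), named by leading genes, with 95% Poisson intervals. Klf4 is at 3.33 and 6.23 CPM in cluster 21 and at 287 and 157 in cluster 38, while Gfi1 is highest in cluster 20 (151 and 92.2).

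Few single cells showed both sides of the Gfi1 and Irf8 pair at equal depth. Of 507 thinned control stem or multipotent progenitors 13 had a Gfi1 UMI, and 5 of these also had an Irf8 UMI (38.5%, 13.9 to 68.4), against 48.2% of the cells without Gfi1. In the MYC library these were 5 of 18 (27.8%, 9.69 to 53.5) against 45.4%. The intervals include the shares without Gfi1 in both libraries, so no difference was detectable at this depth. In granulocyte progenitors 2 of 97 Gfi1 cells of the control and 0 of 50 of the MYC library had an Irf8 UMI, the latter allowing a share of up to 6.0%.

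Gene by gene, the members' patterns over classes were set beside those of 2679 other genes as Pearson r of log2(CPM + 1) over 32 sums, 16 classes in each of 2 libraries. The points share libraries and free RNA, so r is a description. Cebpe was most like Camp (0.954), Gca and Mgst2, and Cebpd most like Prdx5 (0.960), Pgd and Gsr. Spi1 was most like Fes (0.941), Rab31 and Csf2ra, Irf8 most like Ly86 (0.932), Plekho1 and Cd180, and Klf4 most like Plxnb2 (0.962), Pld4 and Ms4a6c. The closest genes were less alike for Cebpb (Akt1, 0.871; Ifitm2; Sat1), Cebpa (Tm9sf3, 0.851; Il3ra; Ccl9) and Gfi1 (Lta4h, 0.771; Nkg7; Fcnb). Among the members themselves Cebpd and Spi1 gave 0.855, Cebpb and Spi1 0.816, Irf8 and Klf4 0.802 and Irf8 and Cebpe -0.613.

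Of 12 receptors known as targets of PU.1 or C/EBP factors, 4 were lower and 1 higher in late mature neutrophils, where 22.6% and 8.26% of all features were. Their median log2 ratio was -0.30 against -0.23 for all features. In stem or multipotent progenitors 2 were lower and 1 higher (13.8% and 4.86% of all features; median -0.42 against -0.17). In the other progenitor and neutrophil classes 2 to 4 of 12 were lower and 1 higher. Of all features there, 17.2% to 26.6% were lower and 4.36% to 9.19% higher, depending on the class. Among monocytes 2 of 12 were lower in the cycling class (15.3% of all features), 4 of 12 in the non-cycling class (19.5%; median -0.48 against -0.14) and 6 of 11 in the nonclassical class (13.6%; median -0.59 against -0.10), with 1 higher in each. Of all features, 7.44%, 13.4% and 12.0% were higher in these 3 monocyte classes. With 11 or 12 genes these counts are not read as setting the receptors apart. Csf3r, the G-CSF receptor that drives neutrophil output, was lower in all 9 classes. It measured 1446 and 554 CPM in late mature neutrophils (-1.38, -1.43 to -1.34) and 139 and 67.4 in granulocyte progenitors (-1.04). Il6ra, the interleukin 6 receptor, was lower in all 9 as well, with 326 and 156 CPM in non-cycling monocytes (-1.06), but in 4 of 9 with a scaling to the median gene. Cd14, a lipopolysaccharide co-receptor, was higher in the 8 classes where it could be called, for instance at 9.61 and 71.5 CPM in late mature neutrophils (2.90, 2.59 to 3.22). The Csf3r and Cd14 calls were the same in number under all 4 other scalings. Csf2ra and Fcgr2b were called in none of 9.

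Other blood transcription factors were called in both directions in the progenitor and neutrophil classes. In stem or multipotent progenitors 9 of 28 tested were lower and 4 higher, against 13.8% and 4.86% of all features (median -0.34 against -0.17). In granulocyte progenitors 7 and 5 of 20 were, against 26.6% and 4.36% (-0.30 against -0.31), and in late mature neutrophils 8 and 2 of 23, against 22.6% and 8.26% (-0.41 against -0.23). Cycling monocytes had 4 lower and 7 higher of 25 (15.3% and 7.44%). The other monocytes had lower calls alone, 8 of 25 in the non-cycling class (19.5%; median -0.37 against -0.14) and 6 of 15 in the nonclassical class (13.6%; median -0.36 against -0.10), where 13.4% and 12.0% of all features were higher. Myb, which keeps progenitors immature, was lower in all 8 classes tested, with 429 and 238 CPM in granulocyte progenitors (-0.85, -0.94 to -0.76). Scaled to the median gene, Myb was lower in 5 of 8. Fli1 was lower in 8 of 9 (2 of 9 scaled to the median gene) and Runx1 in 7 of 9 (1 of 9), at 177 and 116 CPM for Runx1 in stem or multipotent progenitors (-0.61). Zeb2 was lower in 6 of 9 (5 of 9), among them non-cycling monocytes with 1049 and 574 CPM (-0.87). Klf2 was higher in 7 of 9, at 26.8 and 87.1 CPM in stem or multipotent progenitors (1.7, 1.51 to 1.89), and the immediate-early gene Egr1 in 6 of 8, at 17.7 and 117 CPM in early mature neutrophils (2.73). Both kept at least these numbers of calls under all 4 other scalings.

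Of the C/EBP relatives and regulators, Cebpg was lower in 3 of 9 classes (1 of 9 scaled to the median gene) and was 29.3 and 18.3 CPM in cycling immature neutrophils (-0.68). Atf4, a stress factor that pairs with C/EBP proteins, was higher in stem or multipotent progenitors (97.4 and 175 CPM, 0.84), and in 4 of 9 classes when scaled to the median gene. Trib3, a pseudokinase induced in stress, was called higher in all 3 classes where it could be called, at 0.72 and 5.09 CPM in stem or multipotent progenitors (2.82, 1.76 to 4.09, on 8 and 66 UMIs). Trib1, which promotes the breakdown of C/EBPα, stood at 214 and 142 CPM in early mature neutrophils (-0.60) and was called lower there, while in cycling monocytes it was called higher (3.94 and 6.59 CPM on 22 and 69 UMIs, 0.74). Scaled to the median gene Trib1 was lower in 0 and higher in 2 of 8 classes.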

How the data were processed

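For both libraries the authors deposited UMI counts, whole numbers for each gene in each barcode. The file headers name Cell Ranger 6.0.0; the submitters' processing notes name Cell Ranger 6.0, Seurat and the builds GRCm38 and mm10, and the labels' protocols a 3′ v2 kit. How barcodes were called as cells is not given in the sources used here. The control held 17073 and the MYC library 14496 barcodes.

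Cells with at least 500 UMIs, 200 genes and under 10% mitochondrial UMIs were kept. Scrublet, as built into scanpy 1.11.5, was run with an expected rate of 0.8% per 1000 barcodes and removed 741 (4.79%) control and 251 (1.95%) MYC cells as doublets, fewer than the 13.7% and 11.6% expected, so doublets remained. The kept cells had medians of 5315 and 6014 UMIs, and 81 barcodes occurred in both libraries. Nothing was corrected for free RNA.

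Both libraries were clustered together (Leiden, resolution 1, 15 neighbours, 30 principal components, 2000 variable genes), leaving out the members, the listed genes and mitochondrial, ribosomal and receptor genes. Clusters took the type with most markers among their 10 leading genes or, without any, the best marker score. Cluster 6, the whole early mature neutrophil class, had its best marker score for immature neutrophils (1.52). It was named mature because 2 mature markers, Mmp8 and Mmp9, were among its leading genes. Clusters whose median UMI count was under 1/3 of their library's stayed unnamed, among them cluster 18 with 2474 and 2633 cells. The naming rule was revised, and the split by cycling genes (40% mean detection) and into early (led by Mmp8 and Mmp9) and late mature neutrophils was set, after the data were seen.

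Levels came from class-wise sums of UMIs. Named were all 8 members in every class, examples among list genes that were called with at least 100 UMIs, and the 3 genes most like each member among those reaching 100 CPM in a class of each library; Trib3, some of whose values rest on fewer UMIs, and the genes named as not called were chosen after their values were seen. Ddit3 was left out of its list because 2 features carry the symbol. Gene positions come from GENCODE vM21, whose identifiers match 32158 features. The members and lists were chosen with earlier results of these data known. The interval and call rule was checked on simulated counts.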

Additional observations from a re-analysis of the deposited data

How the results depend on the processing

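No paired analysis was possible because each group has 1 library, and no library could be left out for the same reason. No called member ratio changed sign under any alternative. Lower Cebpa in early and late mature neutrophils, higher Cebpb in non-cycling immature neutrophils and lower Klf4 in non-cycling monocytes kept their calls under every alternative that gave these classes; the other calls of the 9 classes were lost under 1 to 6. The cause of each loss was not tested. Counts of members called, against 1 in stem or multipotent progenitors, 4 in granulocyte progenitors, 3 in the whole neutrophil lineage and 1 in classical monocytes, became 2 in stem or multipotent progenitors, 2 in granulocyte progenitors and 3 in classical monocytes at Leiden resolution 2, and 3 in classical monocytes at resolution 0.5. With doublets kept they were 4, 2 and 2 for the progenitor classes and classical monocytes. With each library clustered on its own they were 6 in stem or multipotent progenitors (Cebpb ratio 3.18) and 3 in classical monocytes. The stem or multipotent class then held 248 control and 594 MYC cells, not the same kinds of cells. Cells classified by markers alone gave 2 in each progenitor class, cells under 5% mitochondrial UMIs 2 in granulocyte progenitors and 1 in the lineage, median-of-ratios scaling 2 in granulocyte progenitors, and the mean of each cell's CPM 1 in the lineage and 2 in classical monocytes. Denominators without the 20 most abundant genes or without Gm42418 gave 2 in classical monocytes. The share of all features called was not computed under these settings, so these counts are not read as results about the members. Median-of-ratios scaling moved all log2 ratios by 0.10 to 0.31, by class. At 2-fold, 409 in place of 2027 features were called in stem or multipotent progenitors, 612 in place of 2902 in granulocyte progenitors, 799 in place of 3036 in the lineage and 715 in place of 2750 in classical monocytes. The 3 alternatives chosen after seeing the data (no clusters of under 100 cells in either library, neutrophil stages weighted equally, no ribosomal and mitochondrial genes in the total) kept these counts within 1.5-fold. Resolution 0.5 gave no stem or multipotent class. List genes were recomputed under the 4 scalings only. Of the 3 genes named as most like each member, 1 to 3 were kept with a pseudocount of 10 CPM. Rare genes are limited by depth: 6 of 72 pairs of gene and class had under 50 UMIs.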

Other observations

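Outside the 9 classes, Cebpb differed most in erythroid cells. It stood at 20.5 CPM in 1350 control and 84.2 CPM in 426 MYC erythroid cells, a log2 ratio of 2.04 (1.86 to 2.22), and 19.3% and 52.6% of the cells had a UMI. Plasma cells had 35.6 and 103 CPM (1.54, 1.23 to 1.85), mature B cells 24.9 and 49.1 (0.98, 0.34 to 1.6) and T cells 44.2 and 71.8 (0.70, 0.23 to 1.16). Of all features, 14.1% were called higher in erythroid cells, 16.6% in plasma cells, 6.23% in mature B cells and 9.45% in T cells. For each UMI of Cebpd, erythroid cells held 1.51 (control) and 4.91 (MYC) UMIs of Cebpb, and plasma cells 2.13 and 4.55. In the whole neutrophil lineage these were 0.818 and 1.29 and in classical monocytes 3.72 and 4.34. The direction was the other in T cells, with 2.38 and 2.14, and in mature B cells, with 3.0 and 2.43. Per UMI of Cebpe the erythroid values were 1.55 and 3.51, and per UMI of Spi1 1.08 and 2.84. Of the 7 members with enough UMIs in erythroid cells 5 were called higher (Cebpa, Cebpb, Cebpe, Spi1 and Klf4). Erythroid cells were made up differently in the libraries, with 778 of 1350 control and 188 of 426 MYC cells in cluster 15, and their cycling list summed to 5790 and 3513 CPM. Cebpb was higher in the MYC library within each of the 3 erythroid clusters, at 31.8 and 117 CPM in cluster 5, 19.0 and 122 in cluster 15 and 20.5 and 46.3 in cluster 26, with no overlap of intervals. The 7 immature neutrophil markers summed to 2722 and 3772 CPM in erythroid cells and the 8 monocyte markers to 208 and 278. In plasma cells these sums were 3018 and 5801 and 839 and 3644, while the 6 plasma cell markers summed to 23467 and 12281. The 7 mature neutrophil markers summed to 375 and 1535 CPM in mature B cells and 625 and 1634 in T cells. The part of free RNA in these levels was not tested.

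Plasmacytoid dendritic cells (248 and 71 cells) had 57.8 and 137 CPM of Klf4 on 130 and 106 UMIs, higher in the MYC library by a log2 ratio of 1.24 (0.86 to 1.62), the direction opposite to that in monocytes; 18.2% of all features were called higher there, and the difference from monocytes was not tested. Spi1 was higher there too, at 89.9 and 145 CPM (0.69, 0.34 to 1.03). Basophils or mast cells had the highest Cebpa level of all classes, 485 and 451 CPM, with a log2 ratio of -0.10 (-0.25 to 0.05).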
